A study of Mus musculus with 12 samples.

Results

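The 10 genes described here encode enzymes and partners that set, copy, oxidise and remove the methyl group of cytosine in DNA. They were chosen by gene symbol, with earlier results of these data known. The 10 are *Tet1*, *Tet2*, *Tet3*, *Tdg*, *Mbd4*, *Dnmt1*, *Uhrf1*, *Dnmt3a*, *Dnmt3b* and *Ogt*. They make up 10 of the 24421 gene symbols and 30 of the 34600 transcript rows in the count and FPKM matrices of the series. FPKM is a count scaled by transcript length and by the depth of the library, so it allows genes of different lengths to be compared. RNA-seq was done on whole kidneys of male C57BL/6 mice at 6 weeks of age, in 4 groups of 3 libraries. The baseline groups are WT and Tet2-/- mice that had no operation. The IR groups are WT and Tet2-/- mice whose right renal pedicle was clamped for 60 min, whose left kidney was removed, and whose kidney was taken 24 h later. The Tet2-/- allele is carried in all cells of the mouse, and the exons it removes are not given in the sources used here. There is no sham-operated library, so an IR effect here includes the operation and the loss of the other kidney. Total counts per library, over the 1 row kept for each symbol, ran from 51007366 to 107969888. The 3 libraries of a group are the only replicates. P-values set a difference against the spread between these libraries, which edgeR, the program of the main tests, shares in part across genes.

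DNA methyltransferases place a methyl group on cytosine, mostly where it is followed by guanine. DNMT3A and DNMT3B methylate new sites, while DNMT1, brought by UHRF1 to half-methylated DNA behind the replication fork, copies the pattern to the new strand. TET enzymes oxidise 5-methylcytosine to 5-hydroxymethylcytosine and further to 5-formylcytosine and 5-carboxylcytosine, which the glycosylase TDG cuts out so that base excision repair can put back an unmodified cytosine.

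The libraries had the markers of whole kidney. All 6 proximal tubule markers were detected in every library, with a summed FPKM of 2363 to 2477 in WT baseline kidneys. This sum was 2159 to 2786 in Tet2-/- baseline, 1451 to 1978 in WT IR and 530 to 780 in Tet2-/- IR kidneys. The 10 leukocyte markers, none of which was at 0 in any library, summed to 20.3 to 27.6 FPKM in WT baseline, 22 to 35.2 in Tet2-/- baseline, 17.0 to 30.2 in WT IR and 95.9 to 171.6 in Tet2-/- IR kidneys. Adipocyte markers stood high in Tet2-/- IR replicate 3, at 595.6 FPKM, and in WT baseline replicates 2 and 3, at 132.7 and 271.0 FPKM, against 15 to 113.7 FPKM in the remaining libraries. Tet2-/- IR replicate 3 also had the lowest sums of thick ascending limb (375.3 FPKM) and distal convoluted tubule markers (26.5 FPKM), and WT IR replicate 3 the lowest sums of endothelial (2.13 FPKM) and podocyte markers (1.97 FPKM). The 3 tubular injury markers *Havcr1*, *Lcn2* and *Krt20* summed to 3.98 to 24.3 FPKM in baseline libraries of both genotypes, 314.7 to 1092 in WT IR and 2777 to 2977 FPKM in Tet2-/- IR libraries. A whole kidney mixes many cell types, so fewer cells of a type and less RNA per cell cannot be told apart in any value given here.

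In WT baseline kidneys the 10 genes covered a wide range of levels. *Ogt* was the highest at 35.1 ± 4.09 FPKM (SD, n = 3), above 92.7% of all symbols. *Tet2* followed at 7.58 ± 1.47 FPKM, then *Dnmt3a* at 3.41 ± 0.423, *Dnmt1* at 2.76 ± 0.137, *Tet3* at 2.10 ± 0.184, *Tdg* at 1.86 ± 0.0271 and *Mbd4* at 1.22 ± 0.105 FPKM. The lowest were *Dnmt3b* at 0.346 ± 0.0858, *Uhrf1* at 0.297 ± 0.0866 and *Tet1* at 0.0893 ± 0.0245 FPKM. Neighbours in this order overlapped between libraries for *Tet3* and *Tdg* and for *Dnmt3b* and *Uhrf1*, and the others did not. In WT IR kidneys *Dnmt1* (6.51 ± 0.852 FPKM) stood second, and its libraries overlapped with those of *Tet2*, which in turn overlapped with those of *Uhrf1*. In Tet2-/- IR kidneys *Dnmt1* (9.14 ± 2.24 FPKM) and *Uhrf1* (7.21 ± 6.06 FPKM) came next after *Ogt*, and *Tet2* had moved below *Tet3* in the order of the means, at 2.53 ± 0.723 FPKM.

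**Figure D1:**
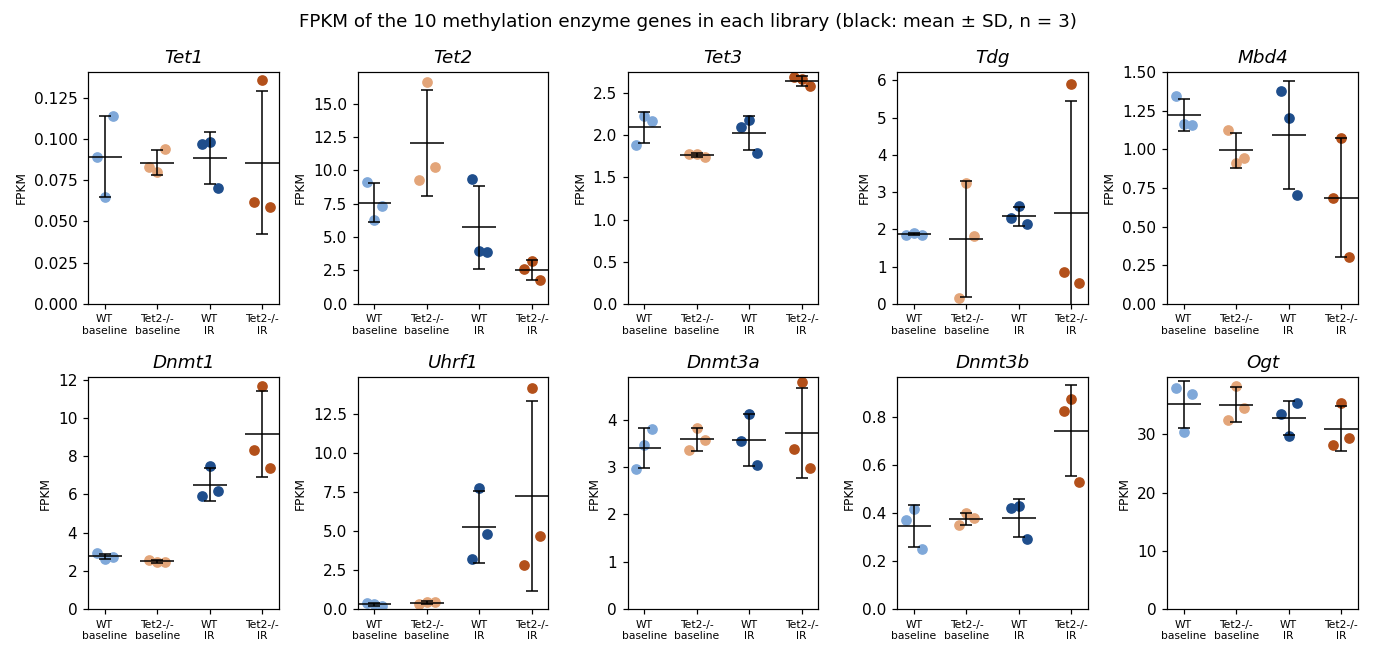
FPKM of each of the 10 genes (y axis, from 0, its own scale in each panel) in the 3 libraries of each group (points), with the mean and SD in black (the lower bar of *Tdg* in Tet2-/- IR passes below 0 and is cut there). *Dnmt1* and *Uhrf1* stand higher in all 6 IR libraries than in all 6 baseline libraries, and *Tet2* is lowest in the 3 Tet2-/- IR libraries, at 1.76 to 3.20 FPKM.

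A gene was called when edgeR's quasi-likelihood test gave a Benjamini-Hochberg adjusted p under 0.05 over all genes tested and a log2 fold change over 1 in size. All 10 genes passed the filter on low counts in each of the 5 comparisons. At baseline, 0 of the 10 genes were called between genotypes, where 0.0124% of 16086 tested genes were called. DESeq2 and limma also called 0 of them, and at an unadjusted p under 0.05 from edgeR there was 1, *Tet2*, as against 1891 of the 16086 genes. After IR, 0 of the 10 were called between genotypes against 6.15% of 16186 genes, with 4 at an unadjusted p under 0.05 from edgeR, as against 4671 of the 16186 genes, and DESeq2 called 1, *Tet2*. From baseline to IR, 2 of the 10 were called in WT kidneys, both higher, where 2.35% of 16015 genes were called and 1.46% were higher. In Tet2-/- kidneys 3 of the 10 were called against 24.3% of 16359 genes, 2 of them higher (12.7% of all genes) and 1 lower (11.6%). For the interaction, the IR effect in Tet2-/- kidneys minus that in WT kidneys, 1 of the 10 was called, against 6.86% of 16741 genes. The median log2 fold change of the 10 genes ran from −0.16 to 0.06 over these comparisons, and that of all genes tested from −0.03 to 0.10.

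**Figure D2:**
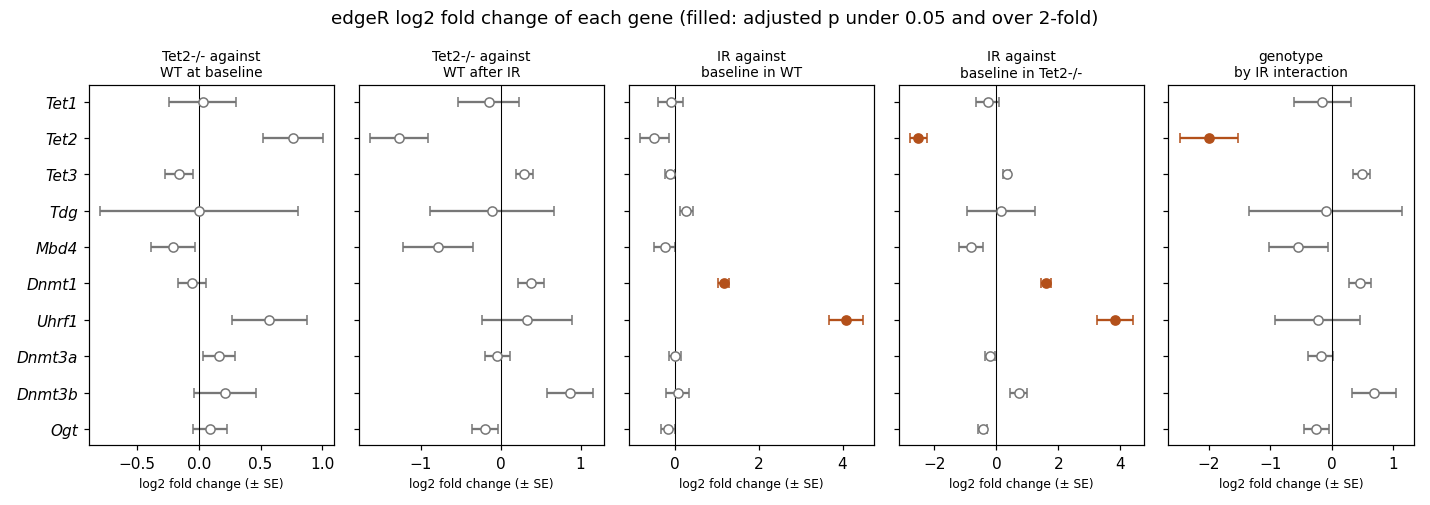
Log2 fold change fitted by edgeR (x axis, with its standard error, scaled separately in each panel) for the 10 genes (y axis) in the 5 comparisons, filled where called. Only *Tet2*, *Dnmt1* and *Uhrf1* have filled points, *Dnmt1* and *Uhrf1* on the right in both IR panels and *Tet2* on the left in the Tet2-/- IR and interaction panels.

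*Tet2* encodes a TET dioxygenase that lacks the CXXC DNA-binding domain of TET1 and TET3. It has 1 row (NM_001040400, chromosome 3 of mm9, minus strand, 133126641 to 133207354). WT baseline replicates 1 to 3 had 9.15, 6.25 and 7.33 FPKM of it, and the baseline libraries labelled Tet2-/- had 9.24, 16.6 and 10.3 FPKM. The transcript was thus not lower in the group labelled as the knockout, each of whose libraries lay above each WT library, and every genotype below is the one the labels give. The row counts reads over the whole transcript, so it does not show whether the deleted exons were present. Across all genes tested, 3.06% lay above without overlap at baseline. The log2 fold change was 0.76 (SE 0.24, unadjusted p = 0.0157 and adjusted p = 0.321 from edgeR) and did not pass. It was 0.46 without Tet2-/- baseline replicate 2, which had the 16.6 FPKM.

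After IR, *Tet2* had 9.34, 3.97 and 3.86 FPKM in WT replicates 1 to 3. It had 2.64, 3.20 and 1.76 FPKM in the libraries labelled Tet2-/-. In WT kidneys replicate 1 stood at a baseline level and the other two below every baseline library, while each IR library labelled Tet2-/- was below each library of the other groups. Within the libraries labelled Tet2-/-, where the proximal tubule marker sum was 2159 to 2786 FPKM at baseline and 530 to 780 FPKM after IR, *Tet2* fell 5.75-fold from baseline to IR (log2 fold change −2.52, SE 0.27, adjusted p = 0.000519 from edgeR). This call held in all 17 alternative settings, with log2 fold changes from −2.70 to −1.86. In WT kidneys the log2 fold change was −0.48 (SE 0.34, adjusted p = 0.440 from edgeR), and it came to −0.99 (adjusted p = 0.050 from edgeR) without WT IR replicate 1. The difference between these IR effects was itself called, at −2.0 (SE 0.48, adjusted p = 0.0285 from edgeR), where 3.95% of all genes were called as lower. The call was lost when 1 of 4 libraries was left out, WT baseline replicate 2 (adjusted p = 0.0560), WT baseline replicate 3 (0.0577), Tet2-/- baseline replicate 2 (0.0584) or Tet2-/- IR replicate 1 (0.0527), all from edgeR, and with limma (0.0613 and 0.0517), with a log2 difference of −1.43 at the least. It was also lost (−1.79, adjusted p = 0.218 from edgeR) without both WT baseline libraries of high adipocyte markers, a fit of all 4 groups that leaves 1 WT baseline library, whose spread is assumed to be that of the other groups.

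Between the genotypes after IR, the log2 fold change of *Tet2* was −1.28 (SE 0.36, adjusted p = 0.0690 from edgeR) and did not pass. The groups did not overlap, as was so for 36.6% of all genes tested. Leaving out WT IR replicate 1 gave −0.76 (adjusted p = 0.118 from edgeR). *Tet2* passed with DESeq2 (adjusted p = 0.00743) and when edgeR was fitted to all 12 libraries at once (adjusted p = 0.0252). The lower *Tet2* level in the IR libraries labelled Tet2-/- moved together with a proximal tubule marker sum that did not overlap with WT IR kidneys (530 to 780 against 1451 to 1978 FPKM) and a leukocyte marker sum that did not overlap either (95.9 to 171.6 against 17.0 to 30.2 FPKM). Their part in this result was not tested.

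*Tet3*, whose protein also oxidises 5-methylcytosine and is known for its role in the zygote, has 1 row (NM_183138). It had 1.89, 2.23 and 2.17 FPKM in WT baseline replicates 1 to 3, and 1.77, 1.78 and 1.74 FPKM in the Tet2-/- baseline libraries. After IR it had 2.09, 2.18 and 1.80 FPKM in WT and 2.69, 2.67 and 2.58 FPKM in Tet2-/- kidneys. The Tet2-/- libraries lay below the WT libraries at baseline and above them after IR, with no overlap in either case. At baseline 19.5% of all genes did not overlap, and for 16.5% of all genes the Tet2-/- libraries were the lower ones, while after IR 36.6% did not overlap. The log2 fold change at baseline was −0.16 (SE 0.12, adjusted p = 0.575 from edgeR) and turned to 0.02 with an offset for transcript length. After IR it was 0.29 (SE 0.11, adjusted p = 0.129 from edgeR). From baseline to IR in Tet2-/- kidneys *Tet3* had a log2 fold change of 0.33 (SE 0.11, adjusted p = 0.0421 from edgeR), under the limit of 1, and 43.1% of all genes had an adjusted p under 0.05 there. With the replicate number as a block this adjusted p was 0.0871 from edgeR. It was also above 0.05 in 5 of the 6 fits that left out a Tet2-/- library, from 0.0831 without IR replicate 3 to 0.135 without baseline replicate 3, and 0.0405 without IR replicate 2. The interaction was 0.49 (SE 0.14, adjusted p = 0.0567 from edgeR).

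*Tet1*, the founding member of the family and best known in embryonic stem cells and the germ line, was near the bottom of the range. Its 4 group means lay between 0.0857 and 0.0893 FPKM, with 77.5 to 246.0 counts per library on the main row. Its log2 fold changes ran from −0.28 to 0.03 over the 5 comparisons, and the smallest adjusted p was 0.555 from edgeR, for IR against baseline in Tet2-/- kidneys. Without Tet2-/- IR replicate 2 that change was −0.69, the one between genotypes after IR −0.57 and the interaction −0.63, and none of them passed.

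The 3 TET genes differed in their shares between the groups. *Tet2* made up 77.2% ± 4.64 of the summed TET FPKM in WT baseline, 86.0% ± 3.49 in Tet2-/- baseline, 70.6% ± 9.18 in WT IR and 47.4% ± 6.75 in Tet2-/- IR libraries (SD, n = 3). *Tet3* held 21.9% ± 4.62, 13.3% ± 3.31, 28.2% ± 8.84 and 51.0% ± 7.15 in the same groups. A share does not depend on the depth of a library. The ratio of *Tet2* to *Tet3* was 0.980, 1.20 and 0.683 in the Tet2-/- IR libraries and between 1.82 and 9.35 in the other libraries. *Tet3* was above *Tet2* in Tet2-/- IR replicates 1 and 3 and below it in the other 10 libraries. The summed TET level was 9.77 ± 1.30, 13.9 ± 4.0, 7.83 ± 3.21 and 5.27 ± 0.806 FPKM in WT baseline, Tet2-/- baseline, WT IR and Tet2-/- IR.

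**Figure D3:**
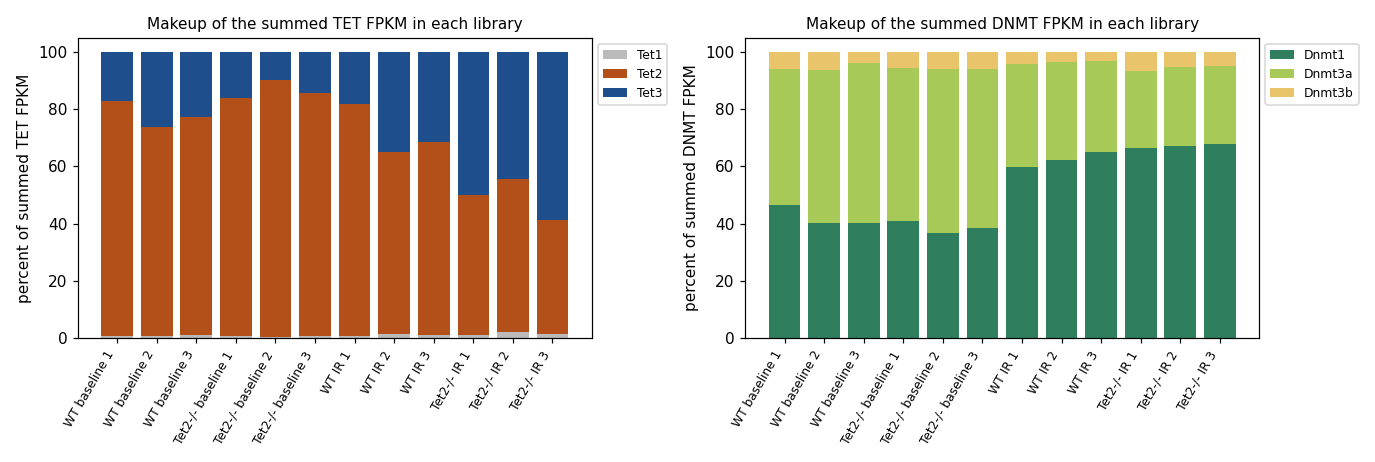
Percent of the summed FPKM of the TET genes (left) and of the DNMT genes (right) held by each gene (stacked bars, y axis from 0 to 100) in each of the 12 libraries (x axis). *Tet2* holds 40.0% to 53.3% of the TET sum in Tet2-/- IR libraries and 63.5% or more elsewhere, and *Dnmt1* holds 59.7% to 67.8% of the DNMT sum in IR libraries and 36.7% to 46.6% at baseline.

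*Tdg* encodes the thymine DNA glycosylase that removes the oxidised bases left by TET enzymes. Its main row (NM_172552, chromosome 10 of mm9 from 82092583 to 82113239, plus strand) had 1.84, 1.89 and 1.86 FPKM in WT baseline replicates 1 to 3 and 2.30, 2.63 and 2.14 FPKM in WT IR kidneys. It had 0.150, 3.25 and 1.82 FPKM in Tet2-/- baseline and 0.862, 5.91 and 0.553 FPKM in Tet2-/- IR replicates 1 to 3. The libraries labelled Tet2-/- thus scattered on both sides of the WT libraries, with 36 counts in baseline replicate 1 and 2438 in IR replicate 2 (2437.5 before rounding), while the WT libraries of each condition lay close together. Between genotypes the log2 fold change was 0.00 at baseline (SE 0.80, adjusted p = 1.0 from edgeR) and −0.11 after IR (SE 0.78, adjusted p = 0.939 from edgeR). Without Tet2-/- IR replicate 2 it was −1.79 after IR and passed (adjusted p = 0.0410 from edgeR), so that 1 library decides this value. In WT kidneys *Tdg* had 0.27 from baseline to IR (SE 0.15, adjusted p = 0.337 from edgeR).

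The *Tdg* transcript has near-identical copies, here meaning matches of at least 300 bases at 90% identity or more elsewhere in mm9. There are 4 of them, on chromosomes 7, 10, 15 and 19, with 98.8% to 99.6% identity. The copies on chromosomes 7, 10 and 15 cover the whole coding sequence of 1194 bases and differ from it at 8, 9 and 14 positions. The following 120 bases of the coding sequence in the last exon, read in the direction of the gene and chosen as the stretch with the most positions at which any copy differs, show how little separates them. Capitals mark bases that differ from the *Tdg* gene.
Tdg gene (chr10:82111323-82111442, plus strand): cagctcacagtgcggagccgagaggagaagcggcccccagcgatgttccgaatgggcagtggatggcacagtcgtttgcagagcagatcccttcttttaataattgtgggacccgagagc
copy on chromosome 10 (chr10:41773942-41774061, minus strand): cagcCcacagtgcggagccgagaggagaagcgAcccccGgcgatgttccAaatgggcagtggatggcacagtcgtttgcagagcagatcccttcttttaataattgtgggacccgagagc
copy on chromosome 15 (chr15:82347965-82348084, plus strand): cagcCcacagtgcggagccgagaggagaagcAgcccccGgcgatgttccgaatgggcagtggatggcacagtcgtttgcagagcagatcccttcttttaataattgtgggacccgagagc
copy on chromosome 19 (chr19:33747841-33747960, minus strand): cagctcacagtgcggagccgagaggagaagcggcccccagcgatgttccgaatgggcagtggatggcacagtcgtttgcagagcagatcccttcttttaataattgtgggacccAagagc
copy on chromosome 7 (chr7:83389655-83389774, minus strand): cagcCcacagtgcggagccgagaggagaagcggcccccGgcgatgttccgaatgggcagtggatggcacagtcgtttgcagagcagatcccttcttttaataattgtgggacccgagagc
In this stretch the copies differ from the gene at 1 to 4 of 120 bases, so the *Tdg* count depends on how reads shared by these places were assigned, and its values are uncertain. In the annotation used here the copy on chromosome 10 is the pseudogene *Gm9855*, and that on chromosome 15 is *Gm5806*. The deposited matrices place their *Gm9855* row (NR_037190) on the *Tdg* gene itself, from 82092587 to 82113022. That row had 0.153, 3.56 and 1.97 FPKM in Tet2-/- baseline replicates 1 to 3, 0.783, 6.41 and 0.511 FPKM in Tet2-/- IR replicates 1 to 3, and 2.0 to 2.78 FPKM in WT libraries, so it was also lowest in Tet2-/- baseline replicate 1 and highest in Tet2-/- IR replicate 2. The row was chosen after its values were seen, and since it spans the same exons it is no independent measure. Whether read assignment or the mice caused this scatter was not tested.

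**Figure D4:**
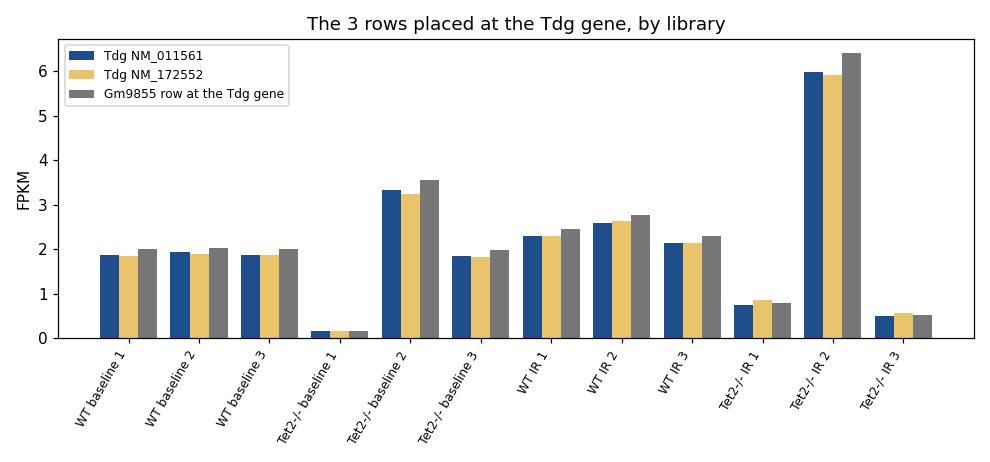
FPKM (y axis, from 0) of the 3 rows placed at the *Tdg* gene in each of the 12 libraries (x axis). The rows move together, from 0.150 to 0.155 FPKM in Tet2-/- baseline replicate 1 to 5.91 to 6.41 FPKM in Tet2-/- IR replicate 2, while WT libraries lie between 1.84 and 2.78 FPKM.

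*Mbd4*, a methyl-CpG binding glycosylase that removes thymine paired with guanine after deamination of 5-methylcytosine, has 1 row (NM_010774). It had 1.34, 1.17 and 1.16 FPKM in WT baseline, 1.12, 0.912 and 0.944 in Tet2-/- baseline, 1.38, 1.20 and 0.704 in WT IR and 0.686, 1.07 and 0.301 FPKM in Tet2-/- IR replicates 1 to 3. The baseline groups did not overlap, as for 19.5% of all genes, and the IR groups did. The lowest library was Tet2-/- IR replicate 3, which also had the highest adipocyte marker sum. The log2 fold change between genotypes was −0.21 at baseline (SE 0.17, adjusted p = 0.616 from edgeR) and −0.78 after IR (SE 0.44, adjusted p = 0.289 from edgeR). The latter was −0.46 without Tet2-/- IR replicate 3 and −1.19 without Tet2-/- IR replicate 2, and passed in neither case. From baseline to IR in Tet2-/- kidneys it was −0.82 (SE 0.40, adjusted p = 0.131 from edgeR), and it passed at −1.20 without IR replicate 2 (adjusted p = 0.0434 from edgeR).

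*Dnmt1*, the maintenance methyltransferase, had 2.91, 2.64 and 2.74 FPKM on its main row (NM_001199431) in WT baseline replicates 1 to 3 and 2.58, 2.45 and 2.46 FPKM in Tet2-/- baseline kidneys. After IR it had 5.89, 7.48 and 6.17 FPKM in WT and 8.35, 11.7 and 7.39 FPKM in Tet2-/- kidneys. Each IR library of either genotype lay above every baseline library, where 29.3% of all genes in WT and 58.3% in Tet2-/- kidneys did not overlap between baseline and IR. After IR the genotypes overlapped only through WT replicate 2, at 7.48 FPKM. *Dnmt1* rose 2.26-fold in WT kidneys (log2 fold change 1.17, SE 0.13, adjusted p = 0.0107 from edgeR) and 3.03-fold in Tet2-/- kidneys (1.60, SE 0.15, adjusted p = 0.000288 from edgeR). Leaving out WT baseline replicate 1 ended the call in WT (1.21, adjusted p = 0.0505 from edgeR), as did limma on log2(FPKM + 1), where 0.99 fell short of the limit, and the fit with 1 WT baseline library, without replicates 2 and 3, in which the change was about as large (1.10, adjusted p = 0.0924 from edgeR). The call in Tet2-/- kidneys held in all 17 settings. The tubular injury marker sum was also higher in each IR library than in each baseline library, and its part in this result was not tested. The difference between the IR effects was 0.46 (SE 0.19, adjusted p = 0.134 from edgeR) and did not pass. Between genotypes it was −0.05 at baseline (SE 0.11, adjusted p = 0.843 from edgeR), although the FPKM values did not overlap, as was so for 19.5% of all genes, and the sign turned to 0.07 with an offset for transcript length. After IR it was 0.38 (SE 0.16, adjusted p = 0.172 from edgeR), and 0.23 without Tet2-/- IR replicate 2.

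*Uhrf1*, which reads half-methylated CpG sites and brings DNMT1 to them, showed the largest change of the 10 genes. Its main row (NM_010931, chromosome 17 of mm9 from 56442760 to 56462909, plus strand) had 0.360, 0.332 and 0.198 FPKM in WT baseline and 0.327, 0.438 and 0.470 FPKM in Tet2-/- baseline replicates 1 to 3. After IR it had 3.19, 7.72 and 4.78 FPKM in WT and 2.83, 14.1 and 4.67 FPKM in Tet2-/- kidneys. Every IR library stood above every baseline library, where 29.3% of all genes in WT and 58.3% in Tet2-/- kidneys did not overlap, and the genotypes overlapped in both conditions. *Uhrf1* rose 16.9-fold in WT kidneys (log2 fold change 4.08, SE 0.40, adjusted p = 0.00842 from edgeR) and 14.2-fold in Tet2-/- kidneys (3.82, SE 0.57, adjusted p = 0.00173 from edgeR). Without Tet2-/- IR replicate 2 the latter was 3.0 (adjusted p = 0.00109 from edgeR), and the WT call was lost in the fit with 1 WT baseline library, without replicates 2 and 3, where the change was 3.79 (adjusted p = 0.162 from edgeR). The interaction was −0.23 (SE 0.69, adjusted p = 0.867 from edgeR), so a difference between the genotypes in this response was not detectable here.

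*Uhrf1* has a single near-identical copy, the annotated pseudogene *Gm5648* on chromosome X, with 97.7% identity over 2590 bases. It covers 1598 coding bases and differs at 28 of them. The 120 coding bases of the last coding exon that hold the most differences are shown in the direction of the gene, with capitals where the copy differs.
Uhrf1 gene (chr17:56461777-56461896, plus strand): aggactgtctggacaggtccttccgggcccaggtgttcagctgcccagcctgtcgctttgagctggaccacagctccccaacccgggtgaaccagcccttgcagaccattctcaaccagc
copy on chromosome X (chrX:118448626-118448745, minus strand): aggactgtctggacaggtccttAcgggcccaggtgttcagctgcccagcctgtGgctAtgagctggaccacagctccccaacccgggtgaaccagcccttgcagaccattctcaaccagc
The other 8 genes had 0 such copies for the transcript searched, the annotated one with the longest coding sequence.

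Genes of DNA replication were also higher in IR than in baseline libraries. A list of 18 genes of S phase and mitosis summed to 26.4 to 36.3 FPKM in baseline libraries and 51.3 to 141.0 FPKM in IR libraries. In WT kidneys 10 of the 18 were called higher from baseline to IR (1.46% of all genes) and 0 lower, with a median log2 fold change of 1.82 against −0.03 for all genes, and in Tet2-/- kidneys 9 of 18 were called higher (12.7% of all genes) and 0 lower, with a median of 1.57 against 0.04. Among those called in WT with a mean of at least 1 FPKM in either group, the helicase subunits *Mcm6* (3.82, SE 0.31), *Mcm5* (2.77, SE 0.21) and *Mcm3* (2.64, SE 0.31) and the licensing factor *Cdt1* (2.20, SE 0.21) had the largest log2 fold changes. Tet2-/- IR replicate 2, which had the highest *Uhrf1* and *Dnmt1*, also had the highest sum of this list, and Tet2-/- IR replicate 1 had the lowest sum of the IR libraries and the lowest *Uhrf1*, but its *Dnmt1* was above that of Tet2-/- IR replicate 3 and of all 3 WT IR libraries. Between genotypes 0 of the 18 were called at baseline, where 0.0124% of all genes were. The median log2 fold change was 0.39 against 0.0040 for all genes. At an unadjusted p under 0.05 from edgeR there were 7 of 18, as against 1891 of all 16086 genes. Of these 7, *Mcm4* was lower in Tet2-/- kidneys (−0.54) and the others were higher. After IR 0 of the 18 were called, where 6.15% of all genes were. Of the 18, 1 had an unadjusted p under 0.05 from edgeR, as had 4671 of all 16186 genes. The median log2 fold change was 0.09 against 0.04 for all genes. *Hells*, a chromatin remodeler needed for DNA methylation, rose with a log2 fold change of 2.81 (SE 0.36, adjusted p = 0.0151 from edgeR) in WT and 2.37 (SE 0.46, adjusted p = 0.00563 from edgeR) in Tet2-/- kidneys.

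**Figure D5:**
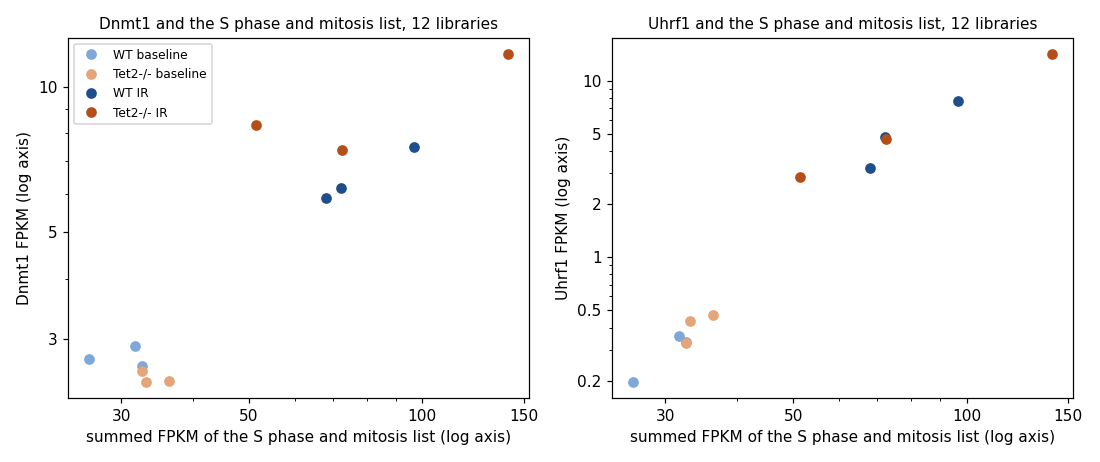
FPKM of *Dnmt1* (left) and *Uhrf1* (right) on log y axes against the summed FPKM of the 18 S phase and mitosis genes on a log x axis, 1 point per library, coloured by group. The 6 baseline libraries lie at sums of 26.4 to 36.3 FPKM and the 6 IR libraries at 51.3 to 141.0 FPKM, with Tet2-/- IR replicate 2 highest on all 3 measures.

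Promoters of replication genes often carry a binding motif of E2F transcription factors. The letters TTTCGCGC and TTTGGCGC were searched for on both strands in the RefSeq windows of GRCm38.p6 that run from 250 bases before to 50 after a gene's start. All 10 genes had a window, and those of *Dnmt1* and *Uhrf1* held a match, where 0.93% of 27025 genes did. Of the 15 matched genes of the S phase and mitosis list 6 held it. The matches before the start of both genes are shown with the bases around them, with the motif in capitals (in *Dnmt1* it reads as its reverse complement).
Dnmt1 (chr9:20952809-20952868, minus strand): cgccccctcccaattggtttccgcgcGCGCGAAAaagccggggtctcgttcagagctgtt
Uhrf1 (chr17:56304102-56304161, plus strand): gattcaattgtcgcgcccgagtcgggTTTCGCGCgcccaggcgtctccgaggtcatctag
*Dnmt1* also held a TTTGGCGC within the 50 bases after its start. A match is a description of these letters and does not show binding.

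*Dnmt3a*, the main de novo methyltransferase of adult tissues, was called in none of the 5 comparisons between groups. Over all 12 libraries its main row (NM_007872) lay between 2.96 and 4.80 FPKM, and the 4 groups overlapped in each comparison. Its log2 fold changes ran from −0.22 (IR against baseline in Tet2-/-, SE 0.15, adjusted p = 0.287 from edgeR) to 0.16 (Tet2-/- against WT at baseline, SE 0.13, adjusted p = 0.604 from edgeR). In WT kidneys the IR effect was −0.00 with a standard error of 0.14. In Tet2-/- kidneys the IR effect ran from −0.39 to 0.03 over 17 alternative settings. The lowest adjusted p among these settings was under 0.05.

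*Dnmt3b*, the other de novo methyltransferase, is known for its role in the embryo. On its main row (NM_001003961) it had 0.369, 0.418 and 0.251 FPKM in WT baseline and 0.351, 0.398 and 0.378 FPKM in Tet2-/- baseline replicates 1 to 3. After IR it had 0.422, 0.431 and 0.290 FPKM in WT and 0.827, 0.876 and 0.528 FPKM in Tet2-/- kidneys. Each Tet2-/- IR library lay above each library of the other groups. Of all genes, 36.6% did not overlap between genotypes after IR and 58.3% did not between baseline and IR in Tet2-/- kidneys. Between genotypes after IR the log2 fold change was 0.87 (SE 0.29, adjusted p = 0.0996 from edgeR), and from baseline to IR in Tet2-/- kidneys it was 0.71 (SE 0.26, adjusted p = 0.0595 from edgeR), neither of which passed. With DESeq2, and with edgeR fitted to all 12 libraries at once, the adjusted p between genotypes after IR was under 0.05. The log2 fold change was not over 1 in size there, so neither fit called *Dnmt3b*. Without Tet2-/- IR replicate 3 the value after IR was 1.02 and did not pass (adjusted p = 0.0786 from edgeR). It passed at 1.03 (adjusted p = 0.0230 from edgeR) when the same library was left out of a fit of all 4 groups together, a setting chosen after seeing the data. The leukocyte marker sum was also higher in each Tet2-/- IR library than in every other library, and its part in this result was not tested. In WT kidneys the IR effect was 0.07 (SE 0.28, adjusted p = 0.912 from edgeR).

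The makeup of the DNMT sum differed between baseline and IR in both genotypes. *Dnmt1* held 42.5% ± 3.62 of the summed FPKM of *Dnmt1*, *Dnmt3a* and *Dnmt3b* in WT baseline and 38.7% ± 2.19 in Tet2-/- baseline libraries. It held 62.3% ± 2.60 in WT IR and 67.2% ± 0.668 in Tet2-/- IR libraries (SD, n = 3). *Dnmt3a* went from 52.2% ± 4.34 and 55.5% ± 2.0 at baseline to 34.1% ± 1.99 and 27.3% ± 0.359 after IR in WT and Tet2-/- libraries. *Dnmt3a* itself was called in none of the 5 comparisons.

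*Ogt* encodes the transferase that places O-linked N-acetylglucosamine on proteins and binds TET2 and TET3. Its main row (NM_139144) had 38.0, 30.5 and 36.9 FPKM in WT baseline, 32.4, 38.3 and 34.6 in Tet2-/- baseline, 33.5, 29.6 and 35.4 in WT IR and 28.2, 35.4 and 29.3 FPKM in Tet2-/- IR replicates 1 to 3. The groups overlapped in each comparison. From baseline to IR in Tet2-/- kidneys the log2 fold change was −0.44 (SE 0.14, adjusted p = 0.0366 from edgeR), under the limit of 1. On the FPKM scale it was −0.18 (adjusted p = 0.263 from limma on log2(FPKM + 0.1)), and the edgeR value was above 0.05 without Tet2-/- baseline replicate 1 (0.0513), 2 (0.131) or 3 (0.113) or without IR replicate 1 (0.0920). In WT kidneys it was −0.16 (SE 0.16, adjusted p = 0.607 from edgeR).

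Of the 10 genes, 7 have more than 1 transcript row: *Tet1* 2, *Dnmt1* 5, *Dnmt3a* 3, *Dnmt3b* 9, *Uhrf1* 4, *Tdg* 2 and *Ogt* 2. The rows of a gene share most exons, and their counts were nearly equal. In every library each further row held between 84.8% (*Tdg*) and 100.1% (*Ogt*) of the count of the main row, with a median per gene of 97.7% to 100%. The FPKM ratio of each further row to the main row was compared between 6 baseline and 6 IR libraries with a two-sided exact permutation test for 20 pairs of rows. Of these, 9 had an adjusted p under 0.05, all with a lower ratio after IR, but the largest change was 0.09 on the log2 scale. That was the row NM_011561 of *Tdg*, whose ratio went from 1.02 at baseline to 0.958 after IR (exact permutation p = 0.00649, adjusted p = 0.0433). Its change was −0.03 in WT and −0.15 in Tet2-/- libraries taken alone, a difference that was not tested. The count of 9 fell to 0 with a pseudocount of 0.1 in place of 0.01 and in 9 of the 12 tests that left out a library, and these matrices do not resolve which transcript of a gene was used.

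The lists of neighbouring pathways were counted in the same fits. At baseline 0 of the 87 tested genes in 6 lists were called between genotypes by edgeR, where 0.0124% of all genes were, and 17 had an unadjusted p under 0.05, as had 1891 of all 16086 genes. The list of base excision repair, which completes demethylation after TDG, also held *Gadd45a*, *Gadd45b* and *Gadd45g*. From baseline to IR, 1 of its 13 tested genes was called higher and 1 lower in WT kidneys. In Tet2-/- kidneys 3 were called higher and 1 lower. Over all genes, 1.46% were called higher and 0.887% lower in WT, and 12.7% higher and 11.6% lower in Tet2-/- kidneys. With 4 of 13 genes called in Tet2-/- kidneys, where 24.3% of all genes were, this list is near the background. The called genes were the uracil glycosylase gene *Ung*, which rose in both (1.70, SE 0.29, and 1.81, SE 0.36), *Gadd45g*, which fell in both (−2.24, SE 0.42, and −2.35, SE 0.30), and *Gadd45a* (1.36, SE 0.13) and the endonuclease gene *Apex1* (1.26, SE 0.15), which rose in Tet2-/- kidneys. Of the 9 methyl-CpG readers 1 was called, *Zbtb38*, with 2.21 (SE 0.40) from baseline to IR in Tet2-/- kidneys and an interaction of 2.35 (SE 0.57), where 2.9% of all genes were called higher. Between genotypes *Zbtb38* had −1.97 at baseline (SE 0.39, adjusted p = 0.206 from edgeR) and 0.35 after IR (adjusted p = 0.532 from edgeR), neither called. Of the 16 partners of these enzymes, *Hells* was called in WT, and in Tet2-/- kidneys 4 were called higher, among them *Hells*, the sliding clamp gene *Pcna* (1.09, SE 0.18) and *Wt1* (2.03, SE 0.27), which encodes a podocyte transcription factor that binds TET2. Podocyte markers summed to 31.6 to 67.5 FPKM in Tet2-/- IR and 1.97 to 21.3 FPKM in all other libraries, and their part in the *Wt1* result was not tested.

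Genes of the metabolism around the cofactors of these enzymes were called between genotypes after IR. Of 17 tested genes of the one-carbon and S-adenosylmethionine cycle, which provides the methyl group to DNMTs, 6 were called lower in Tet2-/- IR than in WT IR kidneys, where 3.85% of all genes were, and 0 higher, with a median log2 fold change of −0.92 against 0.04 for all genes. Those with the largest changes were *Gamt* (−2.64, SE 0.48), *Bhmt2* (−2.01, SE 0.23), *Gnmt* (−1.83, SE 0.32) and *Shmt1* (−1.51, SE 0.28), of which *Gamt* and *Gnmt* encode enzymes that use S-adenosylmethionine to methylate guanidinoacetate and glycine, *Bhmt2* a homocysteine methyltransferase and *Shmt1* a folate enzyme. Their levels at baseline were 21.6 and 30.7 FPKM for *Gamt* in WT and Tet2-/- kidneys, and 22.1 and 3.81 FPKM after IR. From baseline to IR in Tet2-/- kidneys 10 of the 17 were called lower (11.6% of all genes) and 1 higher (12.7%). Those called lower were led by *Gamt* (−3.28, SE 0.17) and *Cbs* (−3.07, SE 0.15). In WT kidneys 1 was called, *Cbs* (−1.22, SE 0.20), where 0.887% of all genes were called lower. For the interaction 8 were called lower, against 3.95% of all genes. Of 16 genes of 2-oxoglutarate, 2-hydroxyglutarate and vitamin C, which serve TET activity, 2 were called lower between genotypes after IR, the vitamin C transporter gene *Slc23a1* (−2.19, SE 0.26) and its relative *Slc23a3* (−2.59, SE 0.51). Both were also called lower from baseline to IR in Tet2-/- kidneys and in the interaction. The glutamate dehydrogenase gene *Glud1* was called higher from baseline to IR in WT (1.31, SE 0.24) and Tet2-/- kidneys (1.5, SE 0.35). In Tet2-/- kidneys 1 gene of this list was called higher and 5 lower. In the interaction 1 was called higher, the vitamin C transporter gene *Slc23a2* (1.08, SE 0.26), and 2 lower, against 2.9% and 3.95% of all genes. Between genotypes *Slc23a2* had −0.74 at baseline (SE 0.16, adjusted p = 0.224 from edgeR) and 0.31 after IR (adjusted p = 0.322 from edgeR). Proximal tubule markers, which did not overlap between these groups, moved in the same direction as the genes called lower, and their part in these results was not tested.

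The genes most like 3 of the enzymes in pattern were taken by the Pearson correlation of log2(FPKM + 0.1) over the 12 libraries, among the 12213 genes whose mean FPKM was 1 or more. The libraries share their groups, so the values describe the 4 groups and carry no test. For *Tet2* these were *Serpina6* (r = 0.976), *Dhrs11* (0.961) and *Rnf24* (0.960). *Rnf24* had group means of 45.7, 79.2, 16.3 and 4.05 FPKM in WT baseline, Tet2-/- baseline, WT IR and Tet2-/- IR. For *Tet3* they were *Rapgef1* (r = 0.972), *Extl3* (0.966) and *Efnb1* (0.959). For *Dnmt1* they were *Gm3776* (r = 0.992), *A4galt* (0.990) and *Tagln2* (0.989). *Tagln2* went from 66.9 and 64.2 FPKM at baseline to 179.1 and 243.9 FPKM after IR in WT and Tet2-/- kidneys.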

How the data were processed

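Whole-kidney RNA-seq of 12 mice was analysed. STAR alignment to mm9 and HOMER counting per RefSeq transcript were done by the authors, who deposited the estimated counts without normalization. The authors also deposited FPKM of the same transcripts. The counts rise in steps of 0.5, with 38.7% of values not whole, and were rounded before edgeR and DESeq2. The design written at the start assumed whole counts. A symbol was represented by the row with the highest total count (5569 symbols have several rows). Total counts on these rows ran from 51007366 to 107969888 per library, and no test treats reads as replicates.

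Members, lists and alternatives were chosen with earlier results of these data known. All 10 members were described in each comparison. Of each pathway list at most 4 called genes per comparison were named, ranked by the size of the change, if their mean FPKM reached 1 in a group compared. Comparisons of 2 groups used their own 6 libraries and the interaction all 12, with TMM scaling, edgeR's filter for low counts and quasi-likelihood test. P-values were adjusted by Benjamini-Hochberg over every gene tested. Versions were edgeR 4.0.16, DESeq2 1.42.0 and limma 3.58.1 under R 4.3.3. The fits and exact tests were tested on simulated data. Alternatives were DESeq2 and its size factors, no filter, all rows, a length offset, limma on FPKM, the replicate number as a block, a 12-library fit, and libraries left out. Baseline and IR libraries of the same number correlated in their deviations from the group mean, at 0.347 to 0.353 for the WT pairs and 0.121 to 0.352 for the Tet2-/- pairs. On this ground alone, since they come from different mice, the replicate number was taken as a pairing and used as a block in an alternative, while the fits reported are without it. Copies were found with BLAST 2.17.0 and sequences read with samtools 1.23.1 on mm9. Promoters are RefSeq's on GRCm38.p6. Plots used matplotlib 3.10.9 (Python 3.11.15).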

Additional observations from a re-analysis of the deposited data

Results flagged for a closer look

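The response of *Tet2* to IR differed between the genotypes by the test of the difference itself. The IR effect in the libraries labelled Tet2-/- minus that in WT libraries was −2.0 on the log2 scale (SE 0.48, adjusted p = 0.0285 over 16741 genes in the edgeR fit, of which 3.95% were called lower), from effects of −2.52 in Tet2-/- and −0.48 in WT kidneys. All 3 Tet2-/- IR libraries lay below all 3 Tet2-/- baseline libraries, where 58.3% of all genes did not overlap, and 2 of 3 WT IR libraries lay below all WT baseline libraries. The call was lost in 4 of the 12 fits that left out a library, with limma at both pseudocounts and in a fit without WT baseline replicates 2 and 3, which leaves 1 library in that group and takes its spread from the others. With 3 libraries a group, no single library was tested as an outlier.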

How the results depend on the processing

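At baseline 0 of the 10 genes were called in all alternatives run, and in Tet2-/- kidneys from baseline to IR the count of 3 held within 1.5 times in all of them. After IR the count between genotypes was 1 with DESeq2, with a single 12-library fit (*Tet2* in both) and with a 12-library fit that left out the Tet2-/- IR library of high adipocyte markers (*Dnmt3b*, a setting chosen after seeing the data, while leaving that library out of the 2-group fit gave 0), and 0 to 1 with libraries left out. In WT kidneys from baseline to IR it was 1 with limma on log2(FPKM + 1), 0 in the 12-library fit without WT baseline libraries 2 and 3 (this leaves 1 library in that group, assumed to vary like the other groups), and 1 to 2 with libraries left out. The interaction count was 0 with limma at both pseudocounts and without WT baseline libraries 2 and 3, and 0 to 1 with libraries left out. With the replicate number as a block the counts of called genes stayed at 0, 0, 2, 3 and 1 in the 5 comparisons. The 9 transcript ratios became 0 with a pseudocount of 0.1 (9 at an unadjusted p under 0.05), 0 to 9 with libraries left out, and 0 with a replicate block, whose exact sign-flip test cannot give a p below 0.0313 (5 at an unadjusted p under 0.05). The cause of these changes was not tested.

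No called gene turned its direction, and 18 uncalled values of the 50 did, as log2 fold changes. With limma on log2(FPKM + 0.1) these were *Tet1* (−0.021) and *Tdg* (−0.75) between genotypes at baseline, *Dnmt3a* after IR (0.040), in WT (0.062) and in Tet2-/- kidneys (0.028), and *Tdg* in the interaction (0.094). With limma on log2(FPKM + 1) they were *Tet1* (−0.0046) and *Tdg* (−0.26) at baseline, *Dnmt3a* after IR (0.035), in WT (0.050) and in Tet2-/- kidneys (0.026), and *Tet1* (0.00044) and *Uhrf1* (0.089) in the interaction. With the replicate block they were *Tdg* at baseline (−0.63), *Dnmt3a* in WT (0.0020) and *Tdg* in the interaction (0.018). A length offset turned *Tet3* (0.023) and *Dnmt1* (0.0676) at baseline and *Dnmt3a* in WT (0.017), and with the replicate block as well *Tet3* (0.031), *Dnmt1* (0.0678), *Tdg* (−0.59) and *Dnmt3a* in WT (0.021). DESeq2 turned *Tdg* at baseline (−0.0023) and *Dnmt3a* in WT (0.0080, and 0.0052 with its size factors in edgeR), and the 12-library fit *Tet1* (−0.0060) and *Tdg* (−0.028) at baseline. Without WT baseline libraries 2 and 3, *Ogt* at baseline (−0.033), *Tet3* (0.037), *Dnmt3a* (0.21) and *Dnmt3b* (−0.025) in WT and *Uhrf1* in the interaction (0.024) turned. Without the Tet2-/- IR library of high adipocyte markers, *Tet1* (0.015), *Dnmt3a* (0.0496) and *Tdg* (0.33) after IR turned.

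With libraries left out, values that crossed 0 between genotypes ran from −0.16 to 0.25 for *Tet1*, −0.80 to 0.55 for *Tdg* and −0.0033 to 0.16 for *Ogt* at baseline. After IR they ran from −0.57 to 0.018 for *Tet1*, −0.21 to 0.043 for *Dnmt3a*, −0.51 to 0.71 for *Uhrf1* and −1.79 to 0.32 for *Tdg*. For IR in WT they ran from −0.26 to 0.13 for *Tet1*, −0.10 to 0.098 for *Dnmt3a* and −0.11 to 0.24 for *Dnmt3b*, and for IR in Tet2-/- from −1.50 to 0.95 for *Tdg*. In the interaction they ran from −0.63 to 0.021 for *Tet1*, −1.11 to 0.14 for *Uhrf1* and −1.82 to 0.64 for *Tdg*.

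With 3 libraries a group, an exact permutation test of a single value between 2 groups cannot go below 0.1, so calls rest on the spread that edgeR shares across genes. *Tet1*, *Dnmt3b*, baseline *Uhrf1* and *Tdg* in Tet2-/- baseline replicate 1 (36 counts) rest on low counts.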
